A study of Mus musculus with 39 samples.

Results

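The mouse Fc receptor genes for IgG were followed through 39 AB1-HA tumours: the activating receptors Fcgr1, Fcgr3 and Fcgr4, the inhibitory receptor Fcgr2b, the common gamma chain Fcer1g and the neonatal receptor Fcgrt. They were chosen by name, and all 6 had a row among the 39676 genes of the count table. The AB1-HA line, a murine mesothelioma engineered to express influenza haemagglutinin, was grown under the skin of BALB/c mice of both sexes. Mice received PBS (10 tumours), tretinoin (9 tumours), immune checkpoint therapy (ICT, 10 tumours) or tretinoin+ICT (10 tumours). Per the labels, tretinoin was given at 5 mg/kg for 5 daily doses from day 4, ICT was 100 µg each of anti-CTLA-4 and anti-PD-L1 from day 7, and every tumour was resected on day 9. The study's text also names other tretinoin doses and another number of doses, so the schedule is less certain than the treatment. The tretinoin+ICT tumours were also labelled by the fate of the mouse, with 6 from responders and 4 from non-responders. AB1-HA is 1 cell line, and whole tumours were sequenced, so that tumour and host cells were measured together. The 9 or 10 tumours of a treatment were named in 2 series, and no series held more than 1 treatment, so series and treatment cannot be told apart. Sex was not given per tumour.

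Fc gamma receptors bind the constant region of IgG on the surface of macrophages, monocytes, neutrophils and NK cells. The activating receptors signal through the tyrosine motifs of the common gamma chain, which they also need to reach the cell surface, and lead to phagocytosis, oxidative burst and killing of antibody-coated cells. Fcgr2b carries an inhibitory motif of its own that recruits the phosphatase SHIP1 (Inpp5d) and raises the threshold for activation. Fcgrt, known as FcRn, is an MHC class I-like protein that pairs with beta-2-microglobulin (B2m) and returns IgG from endosomes to the circulation. In tumours these receptors are known as the binding partners of therapeutic antibodies, and the balance of activating to inhibitory receptors is a common measure of myeloid cells.

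Per GENCODE M21 on GRCm38, 4 of the genes lie within 275749 bp of chromosome 1, among 11 protein-coding genes. Fcgr2b occupies positions 170958617 to 170976547 on the minus strand, Fcgr4 171018920 to 171029761 on the plus strand, Fcgr3 171051174 to 171064935 on the minus strand and Fcer1g 171229572 to 171234365 on the minus strand. Fcgr1 lies on chromosome 3, positions 96282909 to 96293969, and Fcgrt on chromosome 7, positions 45092990 to 45103851, both on the minus strand. Fcgr2b and Fcgr3 have nearly the same extracellular part: 313 of the 1347 bases of the longest coding Fcgr3 transcript, 23.2%, stand in runs of at least 50 bases that are identical in Fcgr2b. How reads from those runs were assigned is not given in the sources used here, so the division of reads between Fcgr2b and Fcgr3 is uncertain. No other pair of the 6 genes shared such a run. Fcgr2b and Fcgrt each overlap a gene on the other strand (Gm38204 and Gm45669), and without strand information their reads cannot be told apart. Fcgr3 and Fcgr4 each overlap a gene on their own strand (Mir6546 and Gm26110).

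The sequence before the start site is shown for Fcgr1 and Fcgr4, because they moved together most closely and each holds a motif of the interferon pathway. The bases are RefSeq's for GRCm38.p6, 5′ to 3′ on the strand of the gene, and capitals mark motif matches. They come from chr3:96293970-96294219 (minus strand) for Fcgr1 and chr1:171018676-171018919 (plus strand) for Fcgr4, whose last 6 bases before the RefSeq start are left out because GENCODE places them in the first exon.
Fcgr1: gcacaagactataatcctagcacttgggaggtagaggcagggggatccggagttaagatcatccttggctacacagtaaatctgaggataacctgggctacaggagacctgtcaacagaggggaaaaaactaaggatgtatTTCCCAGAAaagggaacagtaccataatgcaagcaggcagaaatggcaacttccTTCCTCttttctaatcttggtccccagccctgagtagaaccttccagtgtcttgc
Fcgr4: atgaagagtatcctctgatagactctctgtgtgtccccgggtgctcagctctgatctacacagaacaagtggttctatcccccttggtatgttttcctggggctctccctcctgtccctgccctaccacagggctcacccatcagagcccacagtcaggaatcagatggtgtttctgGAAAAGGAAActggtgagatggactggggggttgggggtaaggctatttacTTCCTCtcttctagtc
In Fcgr1 the first capitals are TTCNNNGAA, the interferon-gamma activated site, 109 bases before the start. In Fcgr4 the first capitals are GAAA, any 2 bases and GAAA again, the core of the interferon-stimulated response element, 73 bases before the RefSeq start. The second capitals in both are GAGGAA, read on the opposite strand, the core recognised by the myeloid factor PU.1 (Spi1). Over the 250 bases before all 32851 start sites of the table, on both strands, 7.02% held TTCNNNGAA, 2.98% held the response element core and 23.25% held GAGGAA. Among the other members Fcgr3 held GAGGAA, and Fcgr2b held AGGTCA, the half-site of the retinoic acid receptor, which stood in 14.02% of all windows. Per GENCODE, 187 of the 250 bases of the Fcgr2b window and 27 of the Fcgr3 window are exon of the gene itself. Whether these matches lie outside the exons is not given here. No capitals overlapped. The motifs were chosen after the sequences were seen, so the shares do not measure how unusual the matches are. These matches are descriptions of the letters in the window.

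Libraries held 14033046 to 37951183 counts (median 18548168), and the members had from 602 counts (Fcgr4) to 30723 counts (Fcgr2b) in a tumour, so that none was near the detection limit. Levels are given as counts-per-million (CPM) scaled by TMM, and differences as log2 fold changes with their SE from edgeR's quasi-likelihood test over all genes. A gene was called when its adjusted p was under 0.05 and it differed by at least 1 on the log2 scale, and genes that passed the adjusted p alone were counted as well. Macrophage transcripts were abundant, with C1qa at a mean of 788 CPM and Csf1r at 727 CPM over all tumours. Markers of T cells averaged from 5.50 CPM (Cd3d) to 11.5 CPM (Cd3g). Of the mesothelial markers Wt1 averaged 1.68 CPM, and Upk3b had a count in 3 of 39 tumours. In whole tumours more cells of a type and more RNA per cell cannot be told apart.

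PBS tumours set the baseline. Per kilobase of exon, the order of mean levels was Fcer1g (100.1 ± 26.3 CPM per kb, SD, n = 10), Fcgr2b (68.3 ± 17.0), Fcgr3 (67.1 ± 18.6), Fcgrt (56.7 ± 5.59), Fcgr4 (46.1 ± 27.4) and Fcgr1 (29.4 ± 9.41). Neighbours in this order differed by less than the larger SD of the pair, except for Fcer1g and Fcgr2b. The length used was that of all annotated exons, 5790 bases for Fcgr2b, whose longest coding transcript has 3544. For Fcgr4 both lengths are 1256 bases. The place of Fcgr2b in the order depends on this choice. Replicate 4 of the PBS group was the highest PBS tumour for all 6 genes. It also had the highest summed macrophage markers of that group, 3598 CPM against a median of 2439 CPM.

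**Figure D1:**
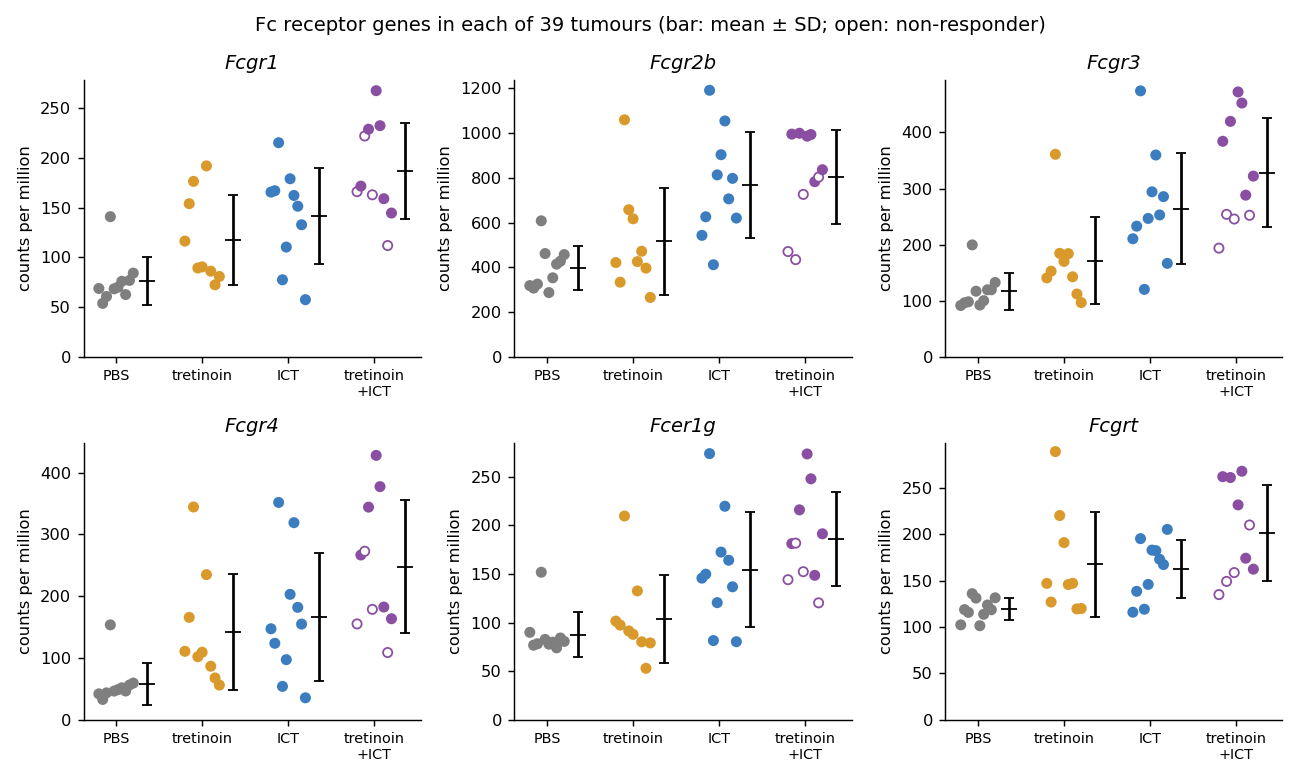
CPM of each gene (y axis, linear, from 0) in every tumour by treatment (x axis); points are tumours, open points are tretinoin+ICT non-responders, and bars give mean ± SD beside each group. All 6 genes have their lowest group mean in PBS and their highest in tretinoin+ICT, and 1 PBS tumour, replicate 4, stands above the others for Fcgr1, Fcgr3, Fcgr4 and Fcer1g.

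Fcgr4, a receptor for the IgG2a and IgG2b subclasses of the mouse, moved most in every comparison with PBS. It ranged from 32.7 to 153 CPM in PBS tumours (median 47.4), from 55.9 to 344 CPM after tretinoin (median 109), from 35.3 to 352 CPM after ICT (median 151) and from 109 to 428 CPM after tretinoin+ICT (median 224). Of the tretinoin+ICT tumours 9 of 10 lay above every PBS tumour, and 5 of 10 ICT tumours did, while the lowest ICT tumour lay below all but 1 PBS tumour. Fcgr4 was higher by 1.30 ± 0.35 after tretinoin (adjusted p=0.0154), by 1.52 ± 0.37 after ICT (adjusted p=0.00891) and by 2.10 ± 0.29 after tretinoin+ICT (adjusted p=1.53e-05).

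Fcgr3, the low-affinity activating receptor of macrophages, NK cells and neutrophils, ranged from 91.3 to 199 CPM in PBS tumours (median 108) and from 96.5 to 361 CPM after tretinoin (median 153). After ICT it ranged from 120 to 474 CPM (median 249.7), and after tretinoin+ICT from 194 to 472 CPM (median 305). Of the ICT tumours 8 of 10 lay above every PBS tumour, whereas 1 of 9 tretinoin tumours did. Fcgr3 differed by 0.56 ± 0.21 after tretinoin (adjusted p=0.0643), and rose by 1.18 ± 0.20 after ICT (adjusted p=0.00108) and by 1.50 ± 0.17 after tretinoin+ICT (adjusted p=2.06e-06).

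Fcgr1, the high-affinity receptor of monocytes and macrophages, ranged from 53.6 to 141 CPM in PBS tumours (median 69.3) and from 72.3 to 192 CPM after tretinoin (median 90.3). It ranged from 57.3 to 215 CPM after ICT (median 157) and from 112 to 268 CPM after tretinoin+ICT (median 169). Of the 10 tretinoin+ICT tumours 9 exceeded every PBS tumour. Fcgr1 rose by 0.63 ± 0.21 after tretinoin (adjusted p=0.0405), by 0.89 ± 0.21 after ICT (adjusted p=0.00709) and by 1.30 ± 0.17 after tretinoin+ICT (adjusted p=6.54e-06). After tretinoin it no longer passed without any 1 of 13 of the 19 tumours, with adjusted p up to 0.0908.

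Fcgr2b, the inhibitory receptor of B cells and myeloid cells, ranged from 287 to 608 CPM in PBS tumours (median 383) and from 265 to 1060 CPM after tretinoin (median 425). It ranged from 411 to 1192 CPM after ICT (median 752) and from 434 to 999 CPM after tretinoin+ICT (median 819.8). The tretinoin tumours covered the whole PBS range, and 8 of 10 tumours in both ICT and tretinoin+ICT lay above every PBS tumour. Fcgr2b differed by 0.39 ± 0.21 after tretinoin (adjusted p=0.209), and rose by 0.95 ± 0.17 after ICT (adjusted p=0.00174) and by 1.03 ± 0.16 after tretinoin+ICT (adjusted p=4.77e-05).

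Fcer1g, the signalling chain, ranged from 73.9 to 152 CPM in PBS tumours (median 80.2) and from 52.9 to 209.7 CPM after tretinoin (median 91.3). It ranged from 80.2 to 274 CPM after ICT (median 148) and from 120.3 to 274 CPM after tretinoin+ICT (median 182). Of the tretinoin+ICT tumours 7 of 10 exceeded every PBS tumour, and of the tretinoin tumours 1 of 9 did. Fcer1g differed by 0.25 ± 0.20 after tretinoin (adjusted p=0.412, 95% interval -0.18 to 0.67), and rose by 0.82 ± 0.20 after ICT (adjusted p=0.00821) and by 1.09 ± 0.15 after tretinoin+ICT (adjusted p=1.06e-05).

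Fcgrt had the narrowest spread of the 6 genes in PBS tumours, 101 to 136 CPM (median 119), a coefficient of variation of 9.86% against 24.9% to 59.4% for the others. It ranged from 119 to 289 CPM after tretinoin (median 147), from 116 to 205 CPM after ICT (median 170.2) and from 135 to 268 CPM after tretinoin+ICT (median 192). Of the tretinoin tumours 6 of 9 lay above every PBS tumour, and of the tretinoin+ICT tumours 9 of 10 did. Fcgrt rose by 0.49 ± 0.14 after tretinoin (adjusted p=0.0208), by 0.44 ± 0.10 after ICT (adjusted p=0.00472) and by 0.76 ± 0.12 after tretinoin+ICT (adjusted p=3.89e-05), below the fold change minimum each time.

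Counted together, tretinoin raised 3 of 6 members by the adjusted p (Fcgr1, Fcgr4 and Fcgrt), where 11.5% of the 14340 genes tested were higher. With no low-count filter Fcgrt (adjusted p=0.0525) and Fcgr1 (adjusted p=0.0922) no longer passed. Fcgr4 alone was called, where 1.49% of genes were. ICT raised all 6 by the adjusted p, against 14.1% of 14155 genes, and 2 were called (Fcgr3 and Fcgr4), against 2.28%. Tretinoin+ICT raised all 6, against 25.7% of 14265 genes, and 5 were called (all but Fcgrt), against 5.45%. The call of Fcgr2b was at the edge of the minimum of 1. It ran from 0.981 to 1.11 when single tumours were left out, and down to 0.990 under other settings. The median log2 fold change of the members was 0.52, 0.92 and 1.20 in turn, beside 0.01, -0.02 and -0.01 over all genes tested. The 3 comparisons share the same PBS tumours. Without PBS replicate 4, 4 members were called after ICT in place of 2. Without PBS replicate 4, tretinoin replicate 3 and ICT replicate 3, the tumours with the most macrophage markers of their groups, the calls against PBS were 1, 2 and 5 as before, while Fcgr3 also passed the adjusted p after tretinoin (0.0116), as it did with DESeq2 (0.0259).

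**Figure D2:**
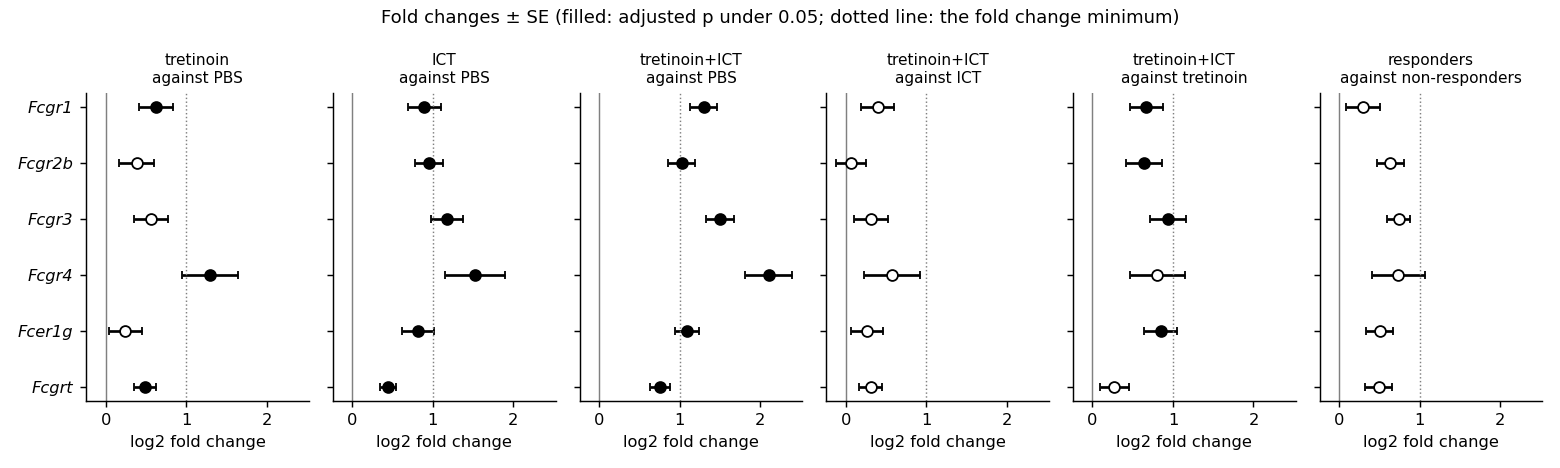
Log2 fold change ± SE (x axis) of each gene (y axis) in 6 comparisons; filled points had an adjusted p under 0.05, the dotted line marks the minimum of 1. Every point lies to the right of 0, Fcgr4 is farthest to the right in each comparison with PBS, and no point is filled for tretinoin+ICT against ICT or for responders against non-responders.

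The addition of ICT to tretinoin raised 4 members by the adjusted p, where 12.3% of 14393 genes were higher: Fcgr3 by 0.94 ± 0.22 (adjusted p=0.00835), Fcer1g by 0.85 ± 0.21 (adjusted p=0.0108), Fcgr1 by 0.67 ± 0.20 (adjusted p=0.0258) and Fcgr2b by 0.64 ± 0.23 (adjusted p=0.0488). Fcgr4 differed by 0.81 ± 0.34 (adjusted p=0.0903) and Fcgrt by 0.27 ± 0.18 (adjusted p=0.268). None reached the fold change minimum, as 1.87% of genes did. The count of calls depended most on tretinoin replicate 3, which had the highest Fcgr2b, Fcgr3, Fcgr4, Fcer1g and Fcgrt of its group. Without it Fcgr3, Fcer1g and Fcgr4 were called (Fcgr4 at 1.09, adjusted p=0.0135). Without tretinoin+ICT replicate 1, Fcgr3 was called (1.01, adjusted p=0.00526). By the adjusted p, Fcgr2b no longer passed without any 1 of 15 of the 19 tumours (up to 0.0918), and Fcgr1 without any 1 of 3 (up to 0.0517), and neither passed with no low-count filter (0.104 and 0.0542).

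The addition of tretinoin to ICT moved no member past the adjusted p, where 1.57% of 14202 genes were higher by the adjusted p and 0.366% were called. All 6 estimates were above 0, from 0.07 ± 0.18 for Fcgr2b (95% interval -0.31 to 0.45) to 0.57 ± 0.35 for Fcgr4 (95% interval -0.15 to 1.29), with adjusted p from 0.253 to 0.865. For Fcgrt the interval was 0.02 to 0.60 before adjustment. These intervals leave room for a rise of Fcgr4 of more than 1 on the log2 scale. At an unadjusted p under 0.05, edgeR had 2571 genes in this comparison.

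The test of whether tretinoin acted differently with ICT than without it gave no member either, where 0.307% of 14977 genes passed in either direction. The interaction was -0.72 ± 0.50 for Fcgr4 (adjusted p=0.680, 95% interval -1.74 to 0.30), -0.32 ± 0.29 for Fcgr2b, -0.24 ± 0.30 for Fcgr3, -0.23 ± 0.30 for Fcgr1, -0.18 ± 0.21 for Fcgrt and 0.02 ± 0.29 for Fcer1g. Ordered by mean level, PBS, tretinoin, ICT and tretinoin+ICT followed each other for 5 genes, and for Fcgrt tretinoin stood above ICT. Neighbours in that order differed by more than the larger SD of the pair in 2 of 18 cases: tretinoin and ICT for Fcgr2b, and PBS and ICT for Fcgrt.

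Differences by name series kept their direction for the comparisons called above. Of the 4 pairs of series per comparison, Fcgr4 was higher in all 4 after tretinoin (0.82 to 1.50), after ICT (1.26 to 1.48) and after tretinoin+ICT (2.05 to 2.16), as a difference of mean log2 CPM. Fcgr3 was higher in all 4 after ICT (1.02 to 1.24). For tretinoin against PBS, Fcgr2b was above 0 in 2 of 4 pairs (-0.03 to 0.58) and Fcer1g in 3 of 4 (-0.18 to 0.48).

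The balance between the receptors was taken per tumour from levels per kilobase, as a description with no test. The size of each share and ratio rests on the exon lengths, and with transcript lengths the Fcgr2b share would be larger in every group. Fcgr2b made up 32.9% ± 3.14 (SD, n = 10) of the summed Fcgr1, Fcgr2b, Fcgr3 and Fcgr4 level in PBS tumours, 26.6% ± 6.40 (n = 9) after tretinoin, 29.4% ± 5.81 (n = 10) after ICT and 23.8% ± 5.37 (n = 10) after tretinoin+ICT. The ICT tumours spread from 23.7% to 42.3%, above and below the PBS range of 26.5% to 37.9%. Fcgr4 went the other way, with 20.9% ± 3.95 in PBS, 30.7% ± 7.06 after tretinoin, 25.9% ± 7.47 after ICT and 32.1% ± 6.20 after tretinoin+ICT. In ICT replicate 10 Fcgr4 made up 11.1%, the lowest of all tumours, and Fcgr2b 42.3%, the highest.

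The log2 ratio of Fcgr4 to Fcgr2b, both per kilobase, was -0.67 ± 0.38 in PBS, 0.22 ± 0.68 after tretinoin, -0.23 ± 0.75 after ICT and 0.44 ± 0.63 after tretinoin+ICT. For Fcgr3 over Fcgr2b it was -0.03 ± 0.11, 0.16 ± 0.27, 0.17 ± 0.19 and 0.45 ± 0.26 in the same order, and the reads those genes share bear on it. For Fcgr1 over Fcgr2b it was -1.23 ± 0.25, -0.95 ± 0.67, -1.30 ± 0.49 and -0.93 ± 0.54 in that order, with the ICT mean below that of PBS. The median of the Fcgr1 ratio was -1.27 in PBS and -1.29 after tretinoin. The gamma chain was set against its receptors, and the log2 ratio of Fcer1g to the sum of Fcgr1, Fcgr3 and Fcgr4 was -0.48 ± 0.21 in PBS, -1.08 ± 0.25 after tretinoin, -0.90 ± 0.17 after ICT and -1.08 ± 0.17 after tretinoin+ICT. It ran from -0.76 to -0.13 in PBS, from -1.32 to -0.54 after tretinoin, from -1.11 to -0.61 after ICT and from -1.29 to -0.76 after tretinoin+ICT.

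**Figure D3:**
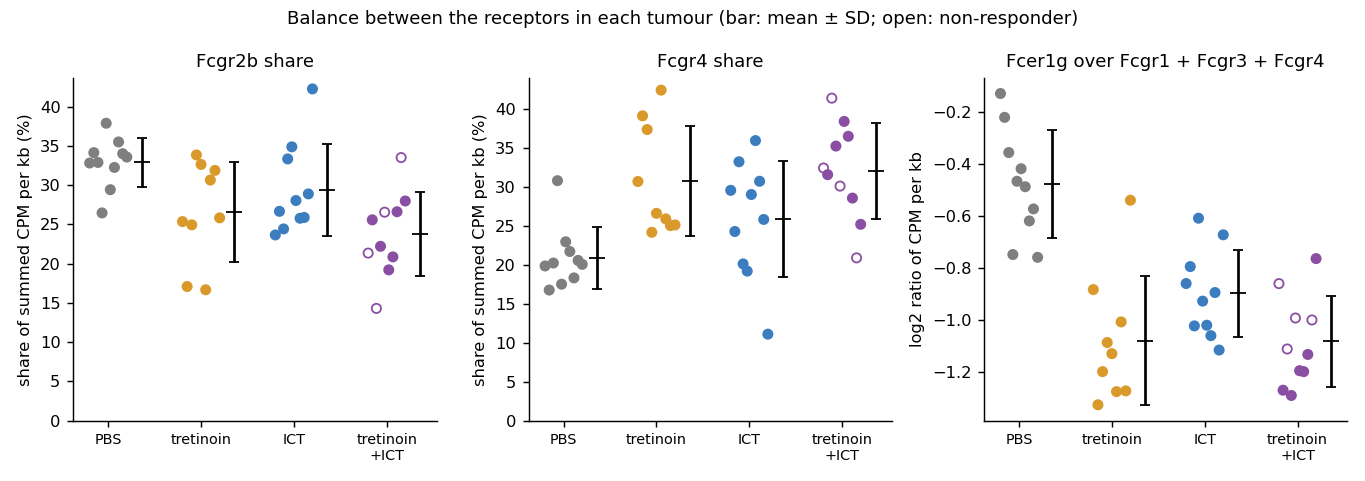
Share of Fcgr2b (left) and of Fcgr4 (middle) in the summed level of the 4 receptors per kb, in percent, and log2 ratio of Fcer1g to the 3 activating receptors (right), by treatment; points are tumours, open points non-responders, bars mean ± SD. The mean Fcgr2b share is 32.9% in PBS and 23.8% in tretinoin+ICT, the mean Fcgr4 share 20.9% and 32.1%.

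Among the tretinoin+ICT tumours the comparison of responders with non-responders asks whether the receptors on day 9 went with the later fate of the mouse. Fcgr3 was 288, 322, 384, 419.9, 453 and 472 CPM in responders and 194, 246, 252 and 254 CPM in non-responders. Every responder lay above every non-responder, a separation that 2.01% of the 14604 genes tested showed in the same direction. Fcgr3 differed by 0.74 ± 0.14 (unadjusted p=0.000251 from edgeR, adjusted p=0.0841).

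Fcgr2b was 783, 836, 986, 994, 995 and 999 CPM in responders and 434, 470.2, 726 and 803 CPM in non-responders. Of the responders 5 of 6 lay above every non-responder. It differed by 0.64 ± 0.17 (adjusted p=0.0896). Fcgr4 was 163, 182, 267, 344, 377 and 428 CPM against 109, 155, 179 and 273 CPM, with overlapping groups, and differed by 0.73 ± 0.33 (adjusted p=0.220).

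Fcer1g had means of 209.9 ± 45.8 CPM in responders (n = 6) and 149.7 ± 25.4 CPM in non-responders (n = 4), and differed by 0.51 ± 0.17 (adjusted p=0.116). Fcgrt had means of 227 ± 47.1 and 163 ± 32.7 CPM, and differed by 0.49 ± 0.17 (adjusted p=0.124). Fcgr1 differed least, with 201 ± 49.0 against 166 ± 45.04 CPM and 0.29 ± 0.21 (adjusted p=0.440). With edgeR, 0% of all genes passed the adjusted p and 0% were called, and 3302 genes had an unadjusted p under 0.05. With DESeq2 6.74% of 12817 genes were higher by the adjusted p, and so were Fcgr3 (adjusted p=0.000342), Fcgr2b (adjusted p=0.00974) and Fcer1g (adjusted p=0.0425), none of them by 1 or more. The study itself, which used DESeq2, listed Fcgr2b and Fcgr3 among the genes upregulated in responders. Its stated threshold was an adjusted p under 0.05 with a log fold change of at least 1 in size. The cause of this difference was not tested. Leaving out responder replicate 8 of the tretinoin+ICT group gave edgeR adjusted p=0.00587 for Fcgr3, 0.0358 for Fcgr2b and 0.0310 for Fcer1g. In that fit 6.68% of 14540 genes were higher by the adjusted p. None of these genes passed in the other 9 edgeR fits without a single tumour. There the adjusted p reached 0.266 for Fcgr3 and Fcgr2b and 0.292 for Fcer1g.

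The response labels were uneven across the name series, with 2 responders and 3 non-responders in series 2 and 4 responders and 1 non-responder in series 4. Fcgr3 was higher in responders by 0.81 in series 2 and 0.57 in series 4, as a difference of mean log2 CPM, and the fit with the series as a block gave 0.74 (adjusted p=0.129). Fcgr2b differed by 0.91 and 0.16, and Fcgrt by 0.83 and -0.04, smaller in series 4, which held 1 non-responder. Fcgr1 differed by 0.12 and 0.80, Fcer1g by 0.32 and 0.80, and Fcgr4 by 0.63 and 1.28, each larger in series 4. The Fcgr2b share of the 4 receptors was 23.8% ± 3.49 in responders and 23.9% ± 8.13 in non-responders. The median of the summed macrophage markers was 4698 CPM in responders (4252 to 5009.9) and 3735 CPM in non-responders (3422 to 4042). As for Fcgr3, every responder lay above every non-responder. The log2 ratio of Fcgr3 CPM to that sum was -3.60 ± 0.21 (SD) in responders and -3.99 ± 0.13 in non-responders, and the ranges met at -3.88. The part of cell content in these differences was not tested.

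Within a treatment the members fell along a gradient. On log2 CPM centred on the mean of each treatment, Fcgr1, Fcgr4 and Fcer1g followed each other over 39 tumours, with Pearson's r of 0.94 for Fcgr1 and Fcgr4, 0.93 for Fcgr4 and Fcer1g and 0.88 for Fcgr1 and Fcer1g. Fcgr2b and Fcgrt formed the other end, with r of 0.85 between them, against 0.42 for Fcgr1 and Fcgr2b and 0.24 for Fcgr1 and Fcgrt. Fcgr3 stood between, with r of 0.90 to Fcgr2b and 0.87 to Fcgr4. These values describe tumours that share libraries, cell content and, for Fcgr2b and Fcgr3, sequence.

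**Figure D4:**
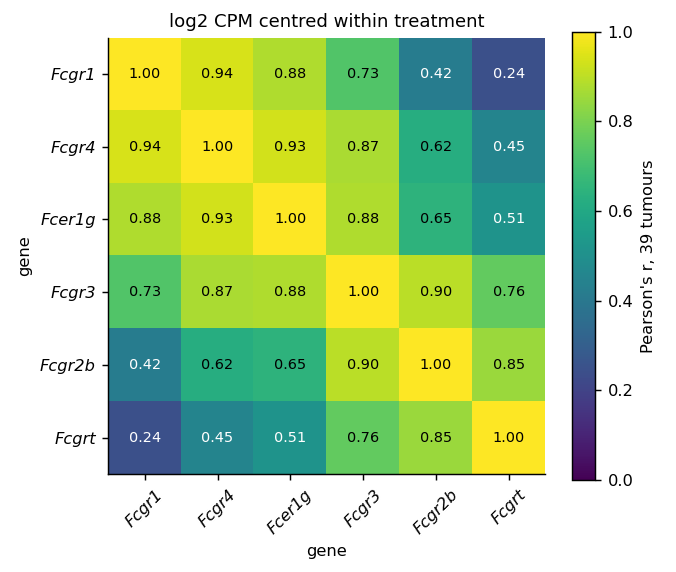
Pearson's r between the 6 genes (both axes) over 39 tumours on log2 CPM centred within treatment; colour and number give r. The block of Fcgr1, Fcgr4 and Fcer1g has r of 0.88 to 0.94, and the corner of Fcgr1 and Fcgrt has 0.24.

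Of 12123 genes with a mean log2 CPM of at least 1, 3 were named per member as those most like it over the 39 centred tumours. For Fcgr1 they were H2-T22 (r=0.97), a non-classical MHC class I gene, Pla2g16 (r=0.97) and the immunoproteasome subunit Psmb8 (r=0.97). For Fcgr4 they were the collagen receptor Lair1, the adaptor Themis2 and the serpin Serpina3g (each r=0.98). For Fcer1g they were B2m and the MHC class I heavy chains H2-K1 and H2-D1 (each r=0.97). For Fcgr3 they were the protease cathepsin S (Ctss, r=0.97), the oxidase subunit Ncf1 (r=0.96) and the beta-glucan receptor Clec7a (r=0.96). For Fcgr2b they were the kinase Bmp2k (r=0.92), the iron regulator Hfe (r=0.91) and the SLAM receptor Cd84 (r=0.90). For Fcgrt they were Hfe (r=0.92), the lectin Mgl2 (r=0.91) and the chemokine Ccl8 (r=0.90).

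Cell markers moved unevenly, and most macrophage, monocyte, neutrophil and NK cell markers tested rose after ICT and after tretinoin+ICT. Over all genes tested 11.5%, 14.1% and 25.7% were higher after tretinoin, ICT and tretinoin+ICT by the adjusted p, and 8.95%, 7.15% and 24.5% were lower. Summed over 7 macrophage markers (Csf1r, Cd68, C1qa, C1qb, C1qc, Mertk and Mrc1), tumours had 2303 to 3598 CPM in PBS, 2546 to 5353 after tretinoin, 2468 to 5402 after ICT and 3422 to 5009.9 after tretinoin+ICT. By the adjusted p, 4 of the 7 rose after tretinoin, 7 after ICT and 7 after tretinoin+ICT. The 5 monocyte markers summed to medians of 583, 734, 1008 and 1217 CPM, and 1, 5 and 5 of them rose. Of 4 neutrophil markers tested 0, 4 and 4 rose, with Cxcr2 higher by 1.34 ± 0.25 after ICT, and Ly6g, their defining marker, had no count in 11 tumours. Of 4 NK cell markers tested 1, 3 and 4 rose, and of the 3 T cell markers none did in these comparisons with PBS. Of 5 dendritic cell markers 1, 1 and 2 rose, and of the eosinophil markers 0 of 2, 1 of 2 and 3 of 3. Of 4 endothelial markers 1, 0 and 1 rose and 0, 2 and 2 fell, and the mast cell marker Cpa3 passed in none of the 3. Wt1, the mesothelial marker tested, rose by 1.12 ± 0.31, 1.40 ± 0.30 and 2.39 ± 0.37. The part of cell content in the members' rise was not tested.

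The members were also set against the summed macrophage markers of the same tumour, as a description with no test. The log2 ratio of Fcgr4 CPM to that sum was -5.61 ± 0.42 in PBS, -4.76 ± 0.60 after tretinoin, -4.79 ± 0.78 after ICT and -4.23 ± 0.53 after tretinoin+ICT. For Fcgr3 it was -4.51 ± 0.18, -4.35 ± 0.24, -3.92 ± 0.25 and -3.76 ± 0.26. For Fcgr1 it was -5.13 ± 0.22, -4.88 ± 0.40, -4.83 ± 0.40 and -4.56 ± 0.33. For Fcgr2b it was -2.74 ± 0.20, -2.78 ± 0.35, -2.36 ± 0.19 and -2.46 ± 0.30, and for Fcer1g -4.91 ± 0.15, -5.08 ± 0.32, -4.70 ± 0.29 and -4.56 ± 0.25, so that after tretinoin the means of both were below PBS by less than the larger SD. For Fcgrt it was -4.44 ± 0.14, -4.35 ± 0.22, -4.56 ± 0.27 and -4.45 ± 0.26, and these means differed by less than the largest of the SDs.

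The other genes of the pathway were counted in 6 lists, with 58 of 62 genes in the table. Over all of them 15 rose and 4 fell of 53 tested after tretinoin by the adjusted p, 42 rose and 0 fell after ICT, and 42 rose and 5 fell after tretinoin+ICT, with medians of 0.26, 0.59 and 0.77. Over all genes tested 11.5%, 14.1% and 25.7% were higher in the same comparisons, and 8.95%, 7.15% and 24.5% were lower, so that the 4 lower genes after tretinoin are near the share of all genes. With the fold change minimum 2, 6 and 17 were called in either direction, where 232, 332 and 845 of all genes tested were. Of the pathway genes 1, 6 and 15 were called higher, beside 1.49%, 2.28% and 5.45% of all genes, and 1, 0 and 2 were called lower.

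Transcripts of genes downstream of the gamma chain were counted first. Of 16 adaptors and kinases that carry, read or act downstream of the activating motif, 6 rose after tretinoin, 15 after ICT and 15 after tretinoin+ICT. None fell. Those called after tretinoin+ICT included the kinase Prkcd (1.26 ± 0.14) and the Src-family kinase Fgr (1.05 ± 0.16). Of 9 oxidase and phagocytosis genes 2, 8 and 9 rose, led after tretinoin+ICT by the oxidase subunits Cybb (1.36 ± 0.24), Ncf1 (1.33 ± 0.14) and Cyba (1.14 ± 0.15). The part of cell content in these counts was not tested.

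Of 9 genes of inhibitory signalling 5 rose after tretinoin, 7 after ICT and 8 after tretinoin+ICT, where 1 fell. The adaptor Dok2 rose by 1.08 ± 0.14 after ICT and by 1.71 ± 0.17 after tretinoin+ICT, and Lair1 by 1.16 ± 0.27 and 1.63 ± 0.24. Inpp5d, the phosphatase recruited by Fcgr2b, differed by 0.26 ± 0.09 after tretinoin (adjusted p=0.0578), and rose by 0.48 ± 0.11 after ICT (adjusted p=0.00688) and by 0.48 ± 0.08 after tretinoin+ICT (adjusted p=5.49e-05).

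Of 6 tested receptors that also pair with the gamma chain, 0 rose and 1 fell after tretinoin, 5 rose after ICT, and 4 rose and 1 fell after tretinoin+ICT. Clec4e, the glycolipid receptor Mincle, rose by 1.48 ± 0.38 after ICT, by 1.15 ± 0.27 after tretinoin+ICT and by 1.27 ± 0.29 when tretinoin+ICT was set against tretinoin. Oscar, a collagen receptor, fell by 1.61 on the log2 scale after tretinoin+ICT, from a low mean of 0.689 CPM. Of 9 other Fc receptor genes tested 2 rose and 2 fell after tretinoin, 5 rose after ICT, and 4 rose and 2 fell after tretinoin+ICT. Fcrl6 rose by 1.66 ± 0.38, 1.61 ± 0.45 and 2.05 ± 0.28, and Fcrl5, a receptor of B cells, fell by 1.31 after tretinoin and by 1.88 after tretinoin+ICT on the log2 scale. Both were low, with means of 1.55 and 0.732 CPM.

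B2m, the partner of Fcgrt, was the most abundant of these genes named, with a mean of 2220.0 CPM. It differed by 0.33 ± 0.17 after tretinoin (adjusted p=0.163), and rose by 0.63 ± 0.18 after ICT (adjusted p=0.0176) and by 0.98 ± 0.14 after tretinoin+ICT (adjusted p=1.38e-05). Of the 4 tested partner and trafficking genes 0, 2 and 2 rose, and 1, 0 and 1 fell. Between tretinoin+ICT and ICT, B2m differed by 0.34 ± 0.19 (adjusted p=0.324), and between responders and non-responders by 0.52 ± 0.16 (adjusted p=0.107). In that last comparison none of the 52 pathway genes tested passed the adjusted p, and their median was 0.38 beside 0.01 over all genes.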

How the data were processed

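The authors made single-end NovaSeq libraries from whole tumours, converted reads with bcl2fastq 2.20.0.422, aligned them with HISAT2 2.0.4 to the mouse genome they name mm11 and counted on genes with SummariseOverlaps. The authors deposited raw counts, whole numbers without normalization. Strand mode and multiply aligned reads are not given in the sources used here. Of 39676 identifiers 36719 match GENCODE M21 on GRCm38, which gave coordinates and exon lengths. Samples were grouped by the deposited labels. Per the methods, mice of the response experiments carried a tumour on each flank, of which 1 was resected and the other showed the outcome. The labels tie no tumour to a mouse, so p-values measure the spread between tumours.

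Genes were tested with edgeR 4.0.16 in R 4.3.3 (filterByExpr, TMM, robust quasi-likelihood test) for each pair of groups and over all 39 tumours for the interaction, with Benjamini-Hochberg adjustment over all genes tested. Fold changes were called at an adjusted p of 0.05 and a log2 fold change of 1. The 6 members are all named. Of each list at most 3 called genes with the largest change per comparison are named (some are not reported here), plus B2m and Inpp5d, and the 3 genes with the highest Pearson's r per member (log2 CPM, prior count 2). Motifs were chosen after the sequences were seen. Members and lists were chosen with earlier results of these data known. Of 119 list entries 105 were found, and the others were not analysed here. Alternatives were DESeq2 1.42.0, its size factors, other count filters (none, or 10 counts in every tumour), 1 fit of all tumours, no fold change minimum, a series block and leaving out tumours. No libraries were duplicates. The tests were tried on simulated data first.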

Additional observations from a re-analysis of the deposited data

Results flagged for a closer look

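In a group of 4 to 10 tumours, a tumour is listed here when its gap to the nearest other tumour is a larger part of the group's range than Dixon's 95% critical value allows. Of 36 groups of values, 7 held a tumour that met this. For independent groups of normally distributed values chance lists about 1 in 20. These groups share tumours between genes, so the 7 cannot be set against that rate. PBS replicate 4 was high for Fcgr1 (141 CPM, next 84.1), Fcgr3 (199 CPM, next 132), Fcgr4 (153 CPM, next 59.2) and Fcer1g (152 CPM, next 89.9). It had the highest macrophage, monocyte, neutrophil, NK cell, T cell and B cell marker sums of its group. Tretinoin replicate 3 was high for Fcgr2b (1060 CPM, next 657) and Fcgr3 (361 CPM, next 184), and had the highest macrophage marker sum of its group, 5353 CPM. Tretinoin+ICT replicate 1 was low for Fcgr3 among the 4 non-responders (194 CPM, next 246). The part of cell content in these values was not tested.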

How the results depend on the processing

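Without the fold change minimum the called members were 3 after tretinoin, 6 after ICT and 4 for tretinoin+ICT against tretinoin, in place of 1, 2 and 0, and the called pathway genes were 19, 42, 47, 2 and 37 in the 5 treatment comparisons in turn, in place of 2, 6, 17, 0 and 2. For pathway genes, 10 counts in every tumour gave 0 after tretinoin. For tretinoin+ICT against ICT DESeq2, no filter and the fit of all 39 tumours gave 1 each, and the fit of all 39 tumours gave 1 for tretinoin+ICT against tretinoin. Leaving out single tumours gave 2 to 4 called members for ICT against PBS (4 without PBS replicate 4) and 0 to 3 for tretinoin+ICT against tretinoin (3 without tretinoin replicate 3, 1 without tretinoin+ICT replicate 1). An exclusion chosen after seeing the data, of PBS replicate 4, tretinoin replicate 3 and ICT replicate 3 together, gave 3 for that comparison. Fcgr2b in tretinoin+ICT against ICT ran from -0.0046 (log2, a changed sign, without ICT replicate 4) to 0.158 when single tumours were left out. Of the 18 genes most like a member, 5 were shared with those found without centring. The cause was not tested. Under other settings the members' fold changes kept direction and side of the threshold in 202 cases, with 4 gained under DESeq2 (Fcgr3 after tretinoin, and Fcgr2b, Fcgr3 and Fcer1g for response) and 4 lost with no low-count filter (Fcgr1 and Fcgrt after tretinoin, and Fcgr1 and Fcgr2b for tretinoin+ICT against tretinoin), and with tumours left out in 637 cases, with 9 gained and 31 lost. Over all genes edgeR called 232, 845, 56 and 300 for tretinoin, tretinoin+ICT against PBS, against ICT and against tretinoin, and 0 for response, where DESeq2 called 351, 1387, 137, 458 and 121. For tretinoin+ICT against PBS no filter gave 1586, and for tretinoin+ICT against ICT 10 counts in every tumour gave 31 and the fit of all tumours 112. The interaction had 46 genes with edgeR, 84 with DESeq2 and 29 with no filter. No paired analysis was possible because replicate numbers were given in accession order and pair no tumours. No member was near the detection limit.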
